A study of Mus musculus with 9 samples.

Results

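This account describes the xenobiotic cytochromes P450 of the mouse jejunum and the receptors that control them, across unirradiated mice, mice given total abdominal irradiation (TAI) and mice given TAI followed by intravenous immunoglobulin (TAI/IVIg). It covers 10 of the 31685 genes in the expression table. These were 8 P450 genes (Cyp3a11, Cyp3a13, Cyp3a25, Cyp2b10, Cyp2c29, Cyp2c55, Cyp2c65 and Cyp2c66) and 2 receptor genes, Nr1i2, which encodes the pregnane X receptor (PXR), and Nr1i3, which encodes the constitutive androstane receptor (CAR). The 10 genes were chosen from an earlier reading of the same mice, so their differences between groups are given as a description. Their calls in the fit of all genes are counted beside the share of all genes, and nothing is read from them.

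All mice were wild-type male C57BL/6J aged 6 to 8 weeks, with 3 mice in each group and jejunum taken on day 3. The control group was labelled as untreated. The TAI group received a single X-ray dose of 12 Gy to the abdomen followed by phosphate-buffered saline. The TAI/IVIg group received the same 12 Gy and then 500 mg/kg IVIg, a pooled human immunoglobulin G, by vein within 1 hour and again every 3 days. The mice were irradiated under pentobarbital sodium, a barbiturate anaesthetic, and whether the control mice were anaesthetized was not stated. Irradiation, anaesthesia and the injection of vehicle therefore cannot be told apart in the comparison of TAI with control. The labels put all 9 libraries in the same batch.

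Cytochromes P450 are haem enzymes of the endoplasmic reticulum that oxidize drugs, steroids, bile acids and fatty acids, and in the gut wall they meet swallowed compounds before the liver does. PXR is a nuclear receptor opened by many drugs and bile acids, and CAR is its close relative, held in the cytoplasm by chaperones until a stimulus such as the barbiturate phenobarbital releases it. Each pairs with the retinoid X receptor on repeated hexamers in DNA, and members of the Cyp3a, Cyp2b and Cyp2c families are among their best known targets.

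Windows of 300 bases around the start of each gene, from 250 bases before to 50 bases after it, were taken from RefSeq (GRCm38.p6) for all 10 genes. The windows of 4 genes are shown. Those of Cyp3a11 and Cyp3a25 hold 2 receptor half-sites each, and those of Cyp2c65 and Cyp2c66 are the closest pair of sequences among the genes. The windows run 5′ to 3′ on the coding strand, and capitals mark the half-sites AGGTCA and AGTTCA, or their reverse complements, and the TATA sequence TATAAA.
Cyp3a11, chr5:145879805-145880104, minus strand: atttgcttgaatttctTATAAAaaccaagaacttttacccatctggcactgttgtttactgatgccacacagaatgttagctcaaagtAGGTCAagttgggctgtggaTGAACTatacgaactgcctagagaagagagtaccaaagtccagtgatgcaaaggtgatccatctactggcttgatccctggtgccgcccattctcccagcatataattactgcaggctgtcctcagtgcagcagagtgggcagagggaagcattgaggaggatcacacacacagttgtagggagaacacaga
Cyp3a25, chr5:146009569-146009868, minus strand: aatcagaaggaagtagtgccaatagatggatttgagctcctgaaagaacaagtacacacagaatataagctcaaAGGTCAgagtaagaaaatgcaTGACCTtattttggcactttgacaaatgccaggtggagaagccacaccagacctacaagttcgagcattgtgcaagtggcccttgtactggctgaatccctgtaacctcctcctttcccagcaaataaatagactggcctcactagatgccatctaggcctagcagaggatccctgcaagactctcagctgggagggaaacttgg
Cyp2c65, chr19:39060756-39061055, plus strand: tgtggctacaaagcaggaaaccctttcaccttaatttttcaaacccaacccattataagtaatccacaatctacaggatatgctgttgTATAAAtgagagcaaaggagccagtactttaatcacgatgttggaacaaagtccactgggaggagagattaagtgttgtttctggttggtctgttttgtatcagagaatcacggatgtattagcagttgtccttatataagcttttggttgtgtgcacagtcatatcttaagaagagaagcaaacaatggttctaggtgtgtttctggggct
Cyp2c66, chr19:39113648-39113947, plus strand: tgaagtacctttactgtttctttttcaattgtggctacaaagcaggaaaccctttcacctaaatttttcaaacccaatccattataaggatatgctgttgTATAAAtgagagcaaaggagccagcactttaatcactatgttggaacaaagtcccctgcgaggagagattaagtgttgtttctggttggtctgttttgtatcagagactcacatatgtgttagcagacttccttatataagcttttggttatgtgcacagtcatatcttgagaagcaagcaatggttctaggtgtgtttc

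Half-sites were found on either strand in the windows of 3 of the 10 genes, Cyp3a11, Cyp3a25 and Cyp2c29, against 27.6% of the windows of 27025 genes. Cyp3a11 and Cyp3a25 each held 2, on opposite strands. No window of the 10 genes held a pair of half-sites as a direct repeat with a gap of 3 or 4 bases or as an everted repeat with a gap of 6 bases, arrangements known to bind PXR and CAR, and among all windows these were found in 0.0111%, 0.0259% and 0.0111%. TATAAA stood in 5 of the 10 windows, those of Cyp3a11, Cyp2c29, Cyp2c55, Cyp2c65 and Cyp2c66, against 14.2% of all windows. Counted from the RefSeq start, it began at -234 in Cyp3a11, -162 in Cyp2c65, -150 in Cyp2c66, -29 in Cyp2c55 and -19 in Cyp2c29. The core GCGTG, read by the aryl hydrocarbon receptor, was found in the Cyp2b10 window alone, against 32.5% of all windows. The windows of Cyp2c65 and Cyp2c66 were identical at 256 of 293 aligned positions (87.4%). The Cyp2c29 window is set on a RefSeq start 17680 bases from the start of the gene as annotated in GENCODE, and its matches refer to that window. The RefSeq start also lay 110 bases from the GENCODE start in Cyp3a11, 38 in Cyp2b10 and 9 in Cyp2c65. These matches describe the letters in the windows, and binding was not measured.

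The depth of the libraries, recovered from the steps of the deposited values, lay between 16284386 and 18244535 reads. Levels are given in FPKM, fragments for each kilobase of exon, scaled to the depth of the library. The 8 epithelial markers summed to 5282 to 6223 FPKM in control, 4971 to 5440 in TAI and 4907 to 5791 in TAI/IVIg mice. The labels name the tissue jejunal epithelium, but smooth muscle markers were present in every mouse (136 to 846 FPKM summed). Fabp6, the bile acid binding protein typical of the ileum, stood at 7326 to 8177 FPKM in control mice, 1372 to 3529 in TAI mice and 208 to 1351 in TAI/IVIg mice. The study's methods name the jejunum for every mouse but do not say which part of it was taken. Position along the intestine and treatment therefore cannot be told apart in the differences from control. Bulk tissue was measured, so fewer cells of a type and less RNA per cell cannot be told apart.

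The Cyp3a genes encode the main drug-oxidizing subfamily of the gut, and they were described first. Cyp3a11 (chromosome 5, 145854426 to 145879964, minus strand, GRCm38), a broad drug and steroid oxidase and a standard readout of PXR, was measured at 0.237, 1.04 and 0.363 FPKM in the control mice. It was at 71.0, 61.5 and 56.8 FPKM in the TAI mice and at 83.8, 158 and 106 FPKM in the TAI/IVIg mice. The 3 groups did not overlap, with control lowest and TAI/IVIg highest, and the gene moved from rank 14909 by mean FPKM in control to rank 732 in TAI and rank 383 in TAI/IVIg. The control values rested on 21, 94 and 32 reads and the irradiated values on 5104 to 13680 reads. On the log2(FPKM + 1) scale TAI lay above control by 5.40 (SE 0.26) and TAI/IVIg by 6.23 (SE 0.26). This scale understates the change of a gene so low in control, and the ratio of the mean FPKM of TAI to control was 115.

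Cyp3a25 (chromosome 5, 145977194 to 146009618, minus strand), a neighbour of Cyp3a11 that is also known from liver, was at 1.49, 3.69 and 1.05 FPKM in control mice. It reached 44.5, 48.3 and 30.0 FPKM in TAI mice and 43.8, 124 and 97.3 FPKM in TAI/IVIg mice. All irradiated mice lay above all control mice, and the lowest TAI/IVIg mouse fell within the TAI range. The log2 difference from control was 3.83 (SE 0.42) in TAI and 4.83 (SE 0.42) in TAI/IVIg. Of the 50-base windows of its transcripts, 26.8% also occur in transcripts of other genes, nearly all in Cyp3a59, which stayed under 1 FPKM in every mouse.

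Cyp3a13 (chromosome 5, 137892932 to 137921619, minus strand), the main Cyp3a enzyme of the mouse intestine, followed another course. It was already at 482, 471 and 312 FPKM in control mice, the highest P450 of the 8 in each of the 9 mice. Its levels were 594, 455 and 663 FPKM in TAI mice and 699, 658 and 653 FPKM in TAI/IVIg mice. TAI overlapped control, while every TAI/IVIg mouse stood above every control mouse, and the log2 differences were 0.45 (SE 0.21) and 0.69 (SE 0.21). None of its 50-base windows occurs in another gene.

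Cyp2b10 (chromosome 7, 25897620 to 25926624, plus strand), the classical target of CAR, was at 0.681, 1.96 and 0.520 FPKM in control mice. It was at 37.4, 27.2 and 48.2 FPKM in TAI mice and at 54.1, 45.9 and 56.1 FPKM in TAI/IVIg mice. Control mice were separate from both irradiated groups, which overlapped each other. The log2 difference was 4.26 (SE 0.28) for TAI and 4.75 (SE 0.28) for TAI/IVIg, and the control values rested on 25, 73 and 19 reads.

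**Figure D1:**
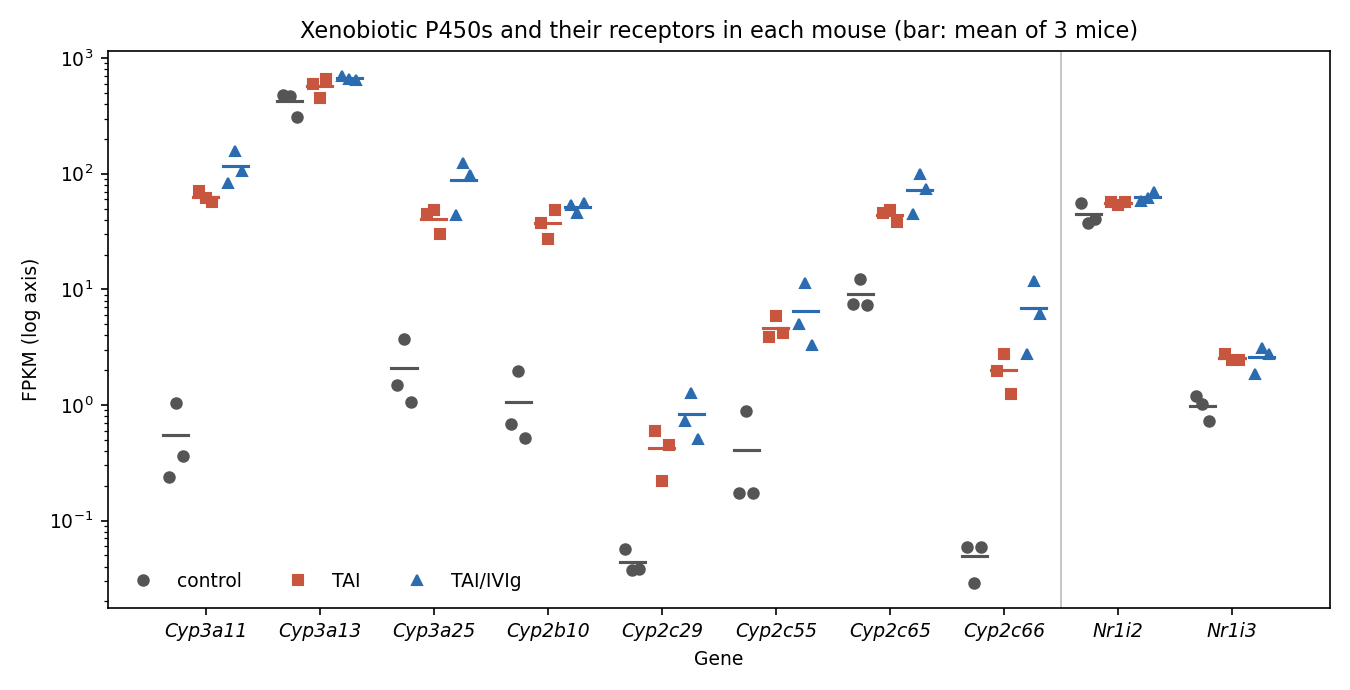
FPKM on a log axis in each of the 9 mice for the 8 P450 genes and, right of the line, the 2 receptors, with circles for control, squares for TAI, triangles for TAI/IVIg and a bar at the mean of 3 mice. Cyp3a11 moved from under 1.1 FPKM in control to 56.8 or more in irradiated mice, while Cyp3a13 and Nr1i2 stayed within a narrow band.

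The 4 Cyp2c genes act mostly on fatty acids such as arachidonic acid, besides drugs. Cyp2c65 (chromosome 19, 39061015 to 39093944, plus strand), a gastrointestinal form, was above 1 FPKM in every control mouse, unlike the other 3, at 7.52, 12.4 and 7.25 FPKM. It was at 45.6, 48.3 and 38.2 FPKM in TAI mice and at 44.7, 98.7 and 73.1 FPKM in TAI/IVIg mice. Irradiated and control mice did not overlap, and the log2 differences from control were 2.19 (SE 0.29) and 2.83 (SE 0.29).

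Cyp2c66 (chromosome 19, 39113898 to 39187072, plus strand), next to Cyp2c65, was nearly silent in control mice at 0.059, 0.029 and 0.059 FPKM. These values rested on 2, 1 and 2 reads. It was at 1.98, 2.78 and 1.24 FPKM in TAI mice and at 2.77, 11.9 and 6.10 FPKM in TAI/IVIg mice. The 3 control mice were lowest, and TAI/IVIg mouse 1 lay just below the highest TAI mouse. The ratio of read rates to control was 40.1 (95% interval 16.9 to 125) for TAI and 139 (59.4 to 430) for TAI/IVIg, where the intervals cover counting error only. Of its 50-base windows 19.5% occur in Cyp2c65, and of its 100-base windows 7.35%, so reads lying wholly within such stretches cannot be placed. Of the 50-base windows of Cyp2c65, 20.2% occur in Cyp2c66.

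Cyp2c55 (chromosome 19, 39007019 to 39042693, plus strand), which makes hydroxy and epoxy fatty acids, was at 0.173, 0.879 and 0.174 FPKM in control mice. It was at 3.83, 5.88 and 4.15 FPKM in TAI mice and at 5.05, 11.3 and 3.29 FPKM in TAI/IVIg mice. All irradiated mice were above all control mice, and the TAI/IVIg range spanned the TAI range. The log2 differences were 2.02 (SE 0.37) and 2.32 (SE 0.37).

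Cyp2c29 (chromosome 19, 39269405 to 39330713, plus strand), a liver epoxygenase of arachidonic acid, was the weakest of the 8. It was at 0.056, 0.037 and 0.038 FPKM in control mice (3, 2 and 2 reads), 0.591, 0.221 and 0.448 in TAI mice and 0.727, 1.27 and 0.506 in TAI/IVIg mice. Irradiated and control mice did not overlap. It did not reach 1 FPKM in 3 mice and was left out of the fit, and its read rate relative to control was 9.70 (95% interval 4.46 to 25.1) in TAI and 19.1 (9.01 to 48.4) in TAI/IVIg. Alb, the albumin gene and a defining marker of hepatocytes, was at 5.92 to 7.45 FPKM in control, 5.92 to 9.30 in TAI and 6.55 to 7.24 in TAI/IVIg mice. The 12 hepatocyte markers summed to 21.9 to 34.3 FPKM in control, 33.97 to 163 in TAI and 15.2 to 38.2 in TAI/IVIg mice. The highest sum was that of TAI mouse 3, with Cyp2e1 at 95.5 and Trf at 57.3 FPKM, and its part in the P450 levels was not tested.

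Both receptors were read on the same scale. Nr1i2 (PXR, chromosome 16, 38248323 to 38294824, minus strand) was at 55.6, 37.7 and 40.4 FPKM in control, 56.6, 53.8 and 57.2 in TAI and 58.2, 62.2 and 70.0 in TAI/IVIg mice. TAI overlapped control through control mouse 1, and every TAI/IVIg mouse was above every mouse of the other groups. The log2 difference from control was 0.34 (SE 0.16) in TAI and 0.52 (SE 0.16) in TAI/IVIg.

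Nr1i3 (CAR, chromosome 1, 171213970 to 171220701, plus strand) was scarce, at 1.20, 1.03 and 0.720 FPKM in control mice, 2.78, 2.45 and 2.43 in TAI mice and 1.86, 3.12 and 2.78 in TAI/IVIg mice. Both irradiated groups lay above control and overlapped each other, with a log2 difference from control of 0.85 (SE 0.17) in each. Nr1i2 stood above Nr1i3 in FPKM, a scale per length, in every mouse. Transcripts annotated to the neighbouring gene Tomm40l, a mitochondrial import protein, share 63.6% of the 50-base windows of Nr1i3. Reads lying wholly within such stretches cannot be placed, so the low level of Nr1i3 and its place below Nr1i2 carry that limit. Tomm40l itself was at 1.03 to 1.37 FPKM in control, 0.779 to 0.909 in TAI and 0.511 to 0.791 in TAI/IVIg mice, opposite in direction to Nr1i3.

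**Figure D2:**
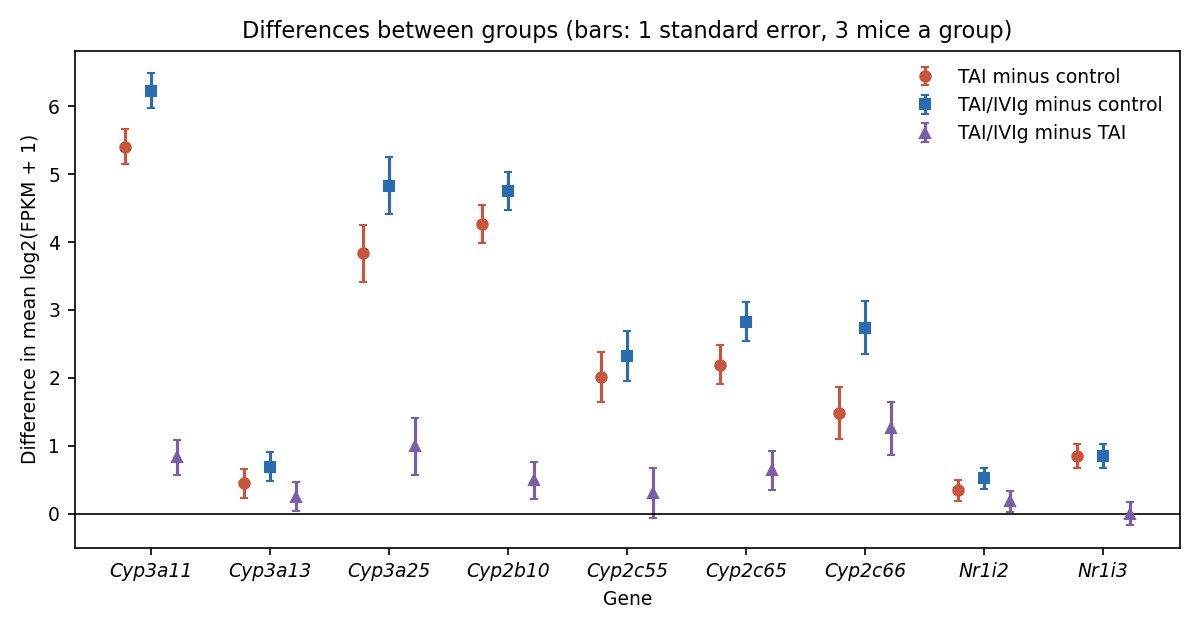
Difference in mean log2(FPKM + 1) between groups for the 9 genes that passed the filter, with 3 mice in each group. Bars show 1 standard error from the fit of all 9 mice. Differences from control reach 6.23 for Cyp3a11 and stay at or below 0.85 for Cyp3a13, Nr1i2 and Nr1i3, and those between TAI/IVIg and TAI lie between 0.00 and 1.26.

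Summed over the 8 enzymes, P450 FPKM was 321 to 492 in control, 649 to 842 in TAI and 934 to 1109 in TAI/IVIg mice, and the 3 ranges did not meet. Cyp3a13 made up 95.9 to 97.9% of that sum in control mice, 70.1 to 78.7% in TAI mice and 59.3 to 74.9% in TAI/IVIg mice. The other 7 enzymes together were at 9.46 to 20.03 FPKM in control, 179 to 205 in TAI and 235 to 451 in TAI/IVIg mice. The order of the enzymes by mean level also changed: in control it ran Cyp3a13, Cyp2c65, Cyp3a25, Cyp2b10 and Cyp3a11, whereas in both irradiated groups Cyp3a11 stood second. In TAI mice Cyp2c65, Cyp3a25 and Cyp2b10 overlapped, at 38.2 to 48.3, 30.0 to 48.3 and 27.2 to 48.2 FPKM, so their order is within the spread between mice.

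The mice of a group varied together across several of the genes. Control mouse 2 was the highest control mouse for Cyp3a11, Cyp3a25, Cyp2b10, Cyp2c55 and Cyp2c65. TAI/IVIg mouse 2 was the highest of all 9 mice for Cyp3a11, Cyp3a25, Cyp2c29, Cyp2c55, Cyp2c65, Cyp2c66 and Nr1i3, but not for Cyp3a13, Cyp2b10 or Nr1i2. Over the 9 mice the Pearson correlation of Cyp3a25 with Cyp2c65 was 0.998 and that of Cyp2c55 with Nr1i2 was 0.632, a description that mainly carries the difference between the groups.

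Of the 10 genes, 9 passed the filter of at least 1 FPKM in at least 3 mice, and 5 of them (Cyp3a11, Cyp2b10, Cyp2c55, Cyp2c66 and Nr1i3) passed it only through the irradiated groups. In limma, 7 of the 9 lay past an adjusted p of 0.05 in TAI against control, all higher, where 8.81% of the 13056 genes tested were called higher and 26.1% lower. Cyp3a13 and Nr1i2 were the others. In TAI/IVIg against control all 9 lay past it, beside 9.06% of genes called higher and 37.4% lower. All mice of the group were above all control mice for 8 of the 10 genes in TAI and for 10 of 10 in TAI/IVIg, which held for 15.1% and 11.5% of the genes tested. The genes were picked on these contrasts, so nothing is read from these counts. The median log2 difference of all genes was -0.23 in TAI and -0.39 in TAI/IVIg, and that of the 9 was 2.02 and 2.74.

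TAI/IVIg against TAI gave smaller differences. Both groups share the irradiation and are compared here with each other rather than through control. The log2 difference was 1.26 (SE 0.39) for Cyp2c66, 0.99 (SE 0.42) for Cyp3a25, 0.83 (SE 0.26) for Cyp3a11, 0.64 (SE 0.29) for Cyp2c65 and 0.49 (SE 0.28) for Cyp2b10. It was 0.30 (SE 0.37) for Cyp2c55, 0.25 (SE 0.21) for Cyp3a13, 0.18 (SE 0.16) for Nr1i2 and 0.00 for Nr1i3. No gene of the 13056 passed in limma (0% called, 1680 genes at an unadjusted p under 0.05, smallest adjusted p 0.353), and 0 of the 10 did. Limma voom on the recovered reads also called 0 genes. All TAI/IVIg mice were above all TAI mice for 2 of the 10 genes, Cyp3a11 and Nr1i2, against 3.09% of genes tested. Without TAI/IVIg mouse 2 the difference was 0.82 for Cyp2c66, 0.69 for Cyp3a25, -0.13 for Cyp2c55, 0.57 for Cyp2b10 and 0.26 for Cyp3a13. Without TAI/IVIg mouse 1 it was 1.70 for Cyp2c66 and 1.43 for Cyp3a25.

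The enzymes come from tandem families, and neighbours of the 10 genes were read in the same table. On chromosome 19 the 15 coding Cyp2c genes begin with Cyp2c55, Cyp2c65, Cyp2c66 and Cyp2c29 in that order, and all 4 were higher in irradiated mice. Of the other 11, 10 stayed under 1 FPKM in every mouse, and Cyp2c68 was at 2.34, 3.74 and 1.78 FPKM in control, 15.3, 16.2 and 13.2 in TAI and 16.3, 30.9 and 28.2 in TAI/IVIg mice. On chromosome 5 the 9 Cyp3a genes included 5 that stayed under 1 FPKM in every mouse. Cyp3a44, just before Cyp3a11, was at 0.059, 0.029 and 0.029 FPKM in control, 2.17, 3.72 and 2.68 in TAI and 2.86, 2.01 and 3.68 in TAI/IVIg mice. The 2 neighbours of Cyp2b10, Cyp2b9 and Cyp2b13, stayed under 1 FPKM.

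**Figure D3:**
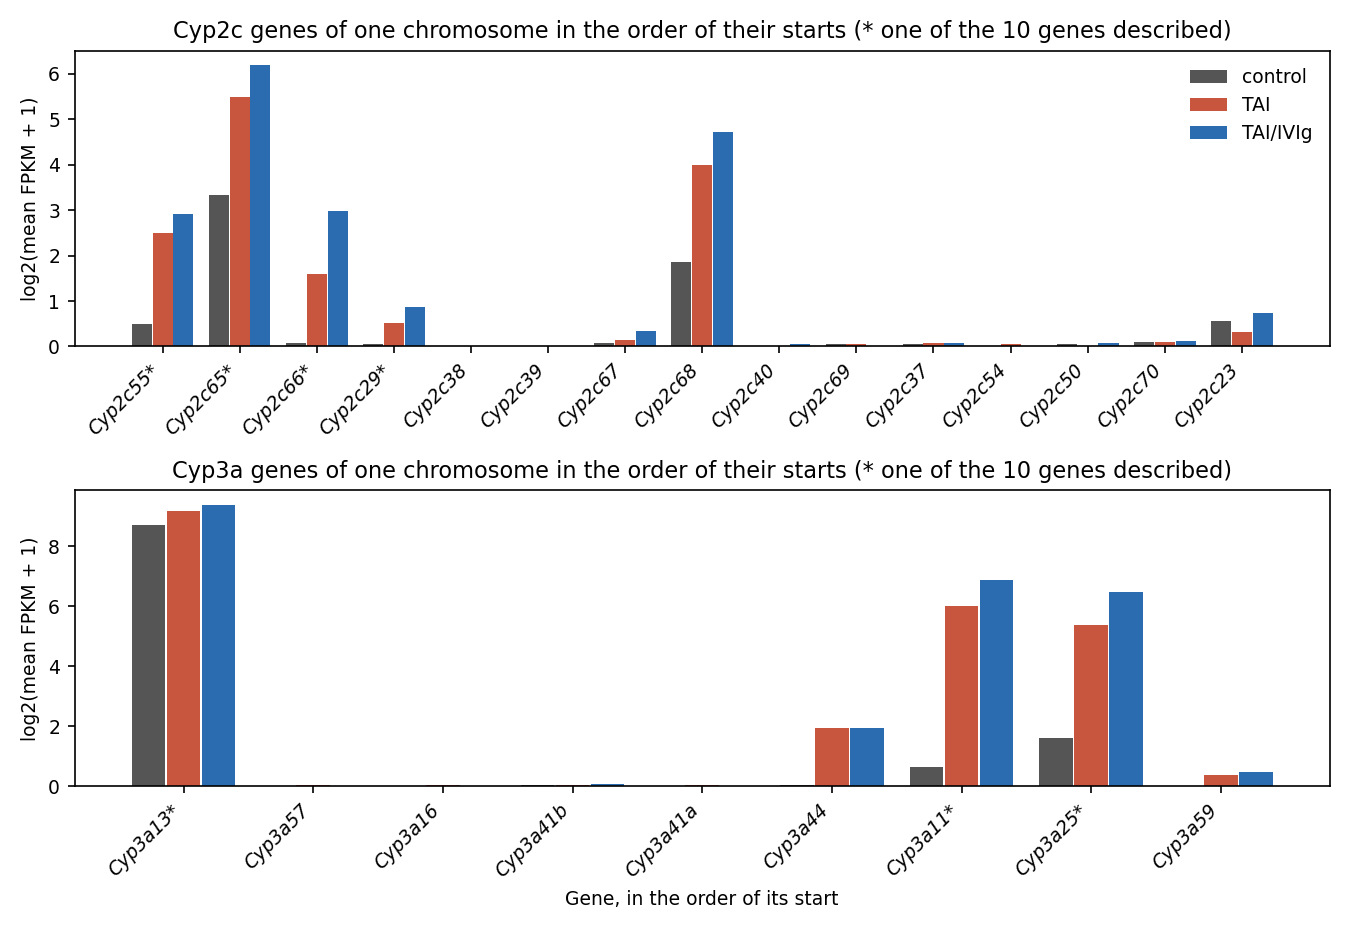
Mean level of every coding Cyp2c gene of chromosome 19 and Cyp3a gene of chromosome 5 in the order of their starts, as log2(mean FPKM + 1), with a bar for each group of 3 mice and an asterisk at the genes described. The first 4 Cyp2c genes and Cyp2c68 are higher in both irradiated groups, as are Cyp3a44, Cyp3a11 and Cyp3a25, and most other genes are near 0.

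Genes of the same pathway outside the 10 were then tested, with 198 of 208 listed genes in the table and 105 past the filter. The lists, like the 10 genes, were drawn up with earlier results of these data known, which limits these tests. In TAI against control 19 rose and 20 fell, and in TAI/IVIg against control 19 rose and 29 fell, while none passed in TAI/IVIg against TAI. Of all 13056 genes, 8.81% were called higher and 26.1% lower in the first of these comparisons and 9.06% and 37.4% in the second. With library medians set equal the split was 28 higher and 14 lower in TAI and 41 higher and 15 lower in TAI/IVIg, and with quantile normalization it was 30 and 19, and 36 and 17. Over all 13056 genes the split was 2159 higher and 1823 lower in TAI and 2880 and 1894 in TAI/IVIg with medians set equal, and 1994 and 2284, and 2407 and 2253, with quantile normalization. The median log2 difference over the 105 genes was -0.08 in TAI and -0.15 in TAI/IVIg.

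Among 10 other P450s of families 1 to 3, 4 rose and 1 fell in TAI, and 5 rose and 1 fell in TAI/IVIg. The shares of all genes were 8.81% higher and 26.1% lower in TAI, and 9.06% and 37.4% in TAI/IVIg. Cyp2d26, of the subfamily that oxidizes many amine drugs, was at 11.9, 24.0 and 8.64 FPKM in control and 169, 153 and 164 in TAI mice (log2 difference 3.48, SE 0.31, limma adjusted p = 0.00035). Cyp2c68 rose by 2.17 (adjusted p = 0.00103), and Cyp3a44 by 1.87 from 4 reads in all control mice to 288 in TAI mice, a ratio the log2 scale compresses. Cyp3a44 passed the filter only through the irradiated groups, where it was high, so its call in the count above is a description. Cyp2c68 and Cyp3a44 share 43.3% and 26.5% of their 50-base windows with other genes, mainly of their own families. Cyp2s1 fell by 1.62 on the log2 scale (adjusted p = 0.00101). Cyp1a1, the best known target of the aryl hydrocarbon receptor and named here after its values were seen, was at 0.103, 5.24 and 0.083 FPKM in control and 0.573 to 1.02 in TAI mice (log2 difference -0.18, adjusted p = 0.825). The direction of that difference was the same in 13 of 17 alternative settings, and control mouse 2 alone lay above the TAI mice.

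The family 4 P450s, which hydroxylate fatty acids, split in both directions. Of 9 tested, 4 rose and 2 fell in TAI and 2 rose and 2 fell in TAI/IVIg. The shares of all genes were 8.81% higher and 26.1% lower in TAI, and 9.06% and 37.4% in TAI/IVIg. Cyp4v3 went from 25.8 to 48.7 FPKM in control to 148 to 172 in TAI (log2 2.18, adjusted p = 0.000707), Cyp4b1 from 37.3 to 70.9 to 134 to 186 FPKM (1.58, adjusted p = 0.00207) and Cyp4a29 from at most 0.453 to 2.13 to 2.65 FPKM (1.41). Cyp4a29 passed the filter only through the irradiated groups, so its call in the count above is a description. Cyp4f40 fell by 2.18 (adjusted p = 0.00559), and Cyp4f18 fell by 1.58 (adjusted p = 0.032), a call lost with the replicate number fitted as a block (adjusted p = 0.0543) and without control mouse 1, control mouse 3 or any 1 TAI mouse (adjusted p up to 0.101). Of the 6 P450s of sterol, bile acid, retinoid and vitamin D metabolism, Cyp27a1, the sterol hydroxylase of mitochondria, rose from 7.03 to 9.90 FPKM to 34.8 to 36.6 FPKM (1.96, adjusted p = 0.000289). Cyp51, of cholesterol synthesis, fell by 0.91 (adjusted p = 0.0168, up to 0.0737 with library medians set equal or without control mouse 3). In TAI/IVIg 1 of these 6 genes rose and 4 fell, beside 9.06% of all genes higher and 37.4% lower.

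Microsomal P450s need electron donors and haem. Of 15 genes of these functions, 1 rose and 3 fell in TAI and 1 rose and 4 fell in TAI/IVIg, beside 8.81% of all genes higher and 26.1% lower in TAI and 9.06% and 37.4% in TAI/IVIg. Alad and Urod, enzymes of haem synthesis, and Cyb5a, cytochrome b5, were called higher in TAI/IVIg with library medians set equal (log2 0.76, 0.61 and 1.01) and with quantile normalization (0.61, 0.57 and 0.76), against 0.27, 0.12 and 0.52 without rescaling, where they were not called. Both scalings lost the calls of lower Alas1 and Por in TAI/IVIg. With the replicate number fitted as a block, Cpox and Uros of the same list were called lower in TAI/IVIg (limma adjusted p = 0.0249 and 0.0337). Alad, Urod, Cyb5a, Cpox and Uros were named after their values were seen. Por, the reductase that feeds every microsomal P450, was at 60.1, 71.4 and 46.7 FPKM in control, 43.4, 33.8 and 50.4 in TAI and 43.8, 39.9 and 26.4 in TAI/IVIg mice (TAI against control -0.47, adjusted p = 0.153, gene named after its values were seen). Alas1, the first enzyme of haem synthesis and itself a known PXR and CAR target, fell by 0.86 on the log2 scale (adjusted p = 0.00589), from 17.2 to 26.1 FPKM to 9.96 to 12.2 FPKM. That call was lost with library medians set equal (adjusted p = 0.0753). Cyb5r1 fell by 0.67 (adjusted p = 0.0253), a call lost without control mouse 2, control mouse 3, TAI mouse 1 or TAI mouse 3 (adjusted p up to 0.0974). Cyb5r3, which reduces cytochrome b5, rose by 0.58 (adjusted p = 0.0458), a call held in 11 of 18 alternative settings and lost without control mouse 1, control mouse 3, TAI/IVIg mouse 3 or any 1 TAI mouse (adjusted p up to 0.145).

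Among 21 receptors, partners and cofactors tested, 0 rose and 4 fell in TAI and 1 rose and 6 fell in TAI/IVIg, where 26.1% and 37.4% of all genes tested were called lower. Rxra, the partner of PXR and CAR, was at 14.6 to 15.9 FPKM in control and 16.6 to 17.8 FPKM in TAI mice (log2 difference 0.17, adjusted p = 0.313, named after its values were seen). Nr1h4, the bile acid receptor FXR, was at 50.7, 41.7 and 49.9 FPKM in control, 24.6, 21.3 and 19.2 in TAI and 14.1, 17.1 and 14.4 in TAI/IVIg mice, a fall of 1.09 in TAI (adjusted p = 0.00127). Nr5a2, which drives bile acid and steroid genes, fell by 1.76 (adjusted p = 0.00121). Hsp90ab1, a chaperone of the complex that holds CAR, was at 256, 598 and 450 FPKM in control and 108, 155 and 122 in TAI mice and fell by 1.69 (adjusted p = 0.00648).

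Conjugating and hydrolysing enzymes and transporters act after or beside the P450s. Of 25 enzymes tested, 5 rose and 4 fell in TAI, and 6 rose and 5 fell in TAI/IVIg. The shares of all genes were 8.81% higher and 26.1% lower in TAI, and 9.06% and 37.4% in TAI/IVIg. Ephx2, the soluble epoxide hydrolase that acts on epoxides of fatty acids such as the Cyp2c enzymes make, rose from 25.7 to 42.5 FPKM to 126 to 197 FPKM (log2 2.18, adjusted p = 0.000487), and Adh1, an alcohol dehydrogenase, rose by 1.79 (adjusted p = 0.00721). Ces2a, an intestinal carboxylesterase, rose by 1.68 (adjusted p = 0.019), a call lost without control mouse 3, TAI mouse 1 or TAI mouse 3 (adjusted p up to 0.0694). Ces1f fell by 2.14 (adjusted p = 0.00356), Ugt2b35, a glucuronosyltransferase, by 1.62 and Sult1d1, a sulfotransferase, by 1.11 (adjusted p = 0.0153, up to 0.0801 with library medians set equal or without control mouse 2 or TAI mouse 2). Ugt2b35 passed the filter only with the control mice counted, where it was high, so its call is a description.

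Of 19 transporters, 4 rose and 5 fell in TAI, and 3 rose and 7 fell in TAI/IVIg. Of all genes tested, 8.81% were called higher and 26.1% lower in TAI, and 9.06% and 37.4% in TAI/IVIg, so nothing is read from these counts. Slc47a1, which exports organic cations, rose by 2.21 (adjusted p = 0.00108) and Slco2a1, a prostaglandin transporter, by 1.54 (adjusted p = 0.00084). Abcc5 rose by 0.71 (adjusted p = 0.0191), a call lost without control mouse 2 or any 1 TAI mouse (adjusted p up to 0.0706). Abcb1a, the drug efflux pump P-glycoprotein and a known target of PXR, fell from 61.4 to 87.3 FPKM to 24.5 to 39.2 FPKM (log2 -1.20, adjusted p = 0.0219), opposite in direction to Cyp3a11. That call was lost with library medians set equal (adjusted p = 0.0715) and without control mouse 1, control mouse 2 or TAI mouse 2 (adjusted p up to 0.0728). Abcc3 fell by 1.33 (adjusted p = 0.0052) and Slc51a, which passes bile acids to the blood, fell by 1.20 (adjusted p = 0.00759).

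**Figure D4:**
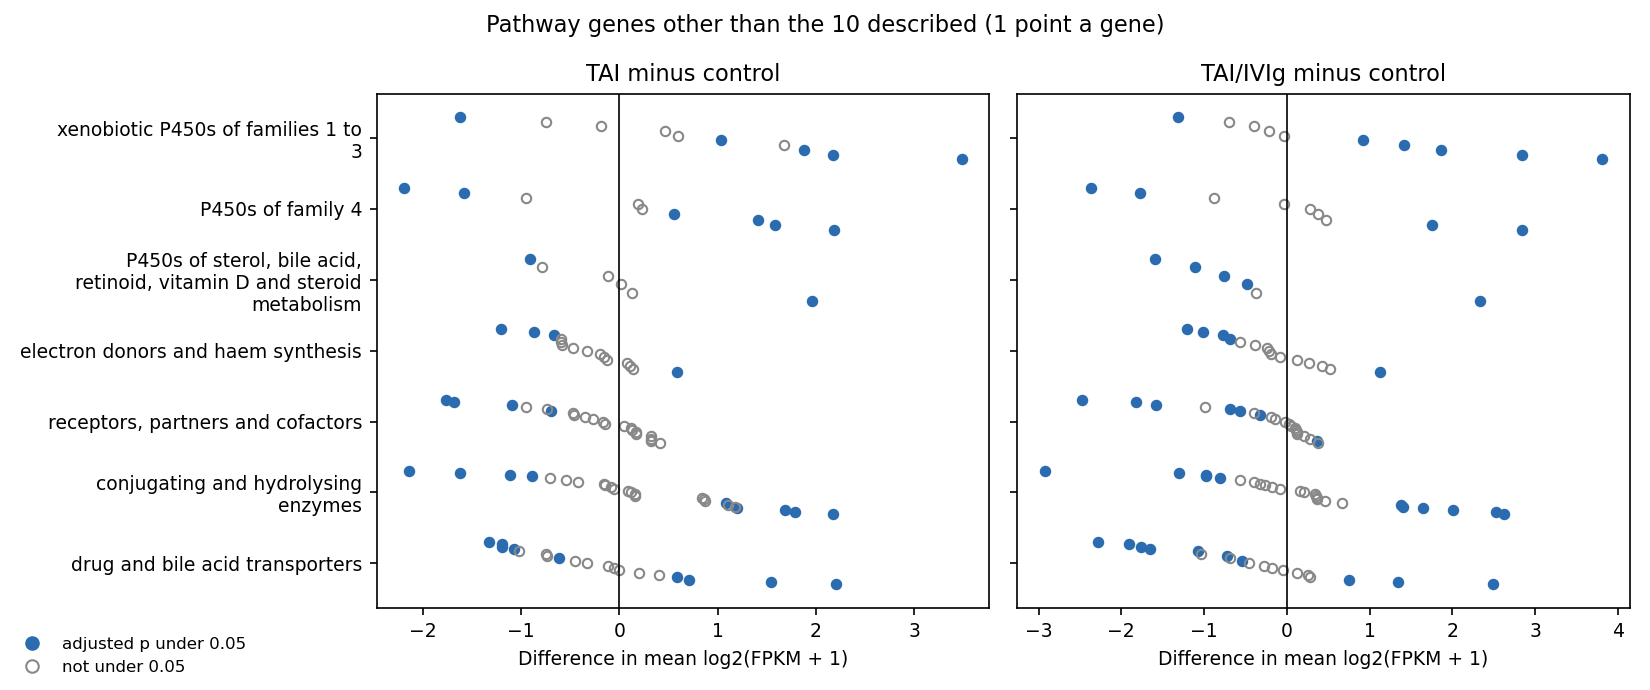
Difference in mean log2(FPKM + 1) from control for each of the 105 tested pathway genes outside the 10, by list, in TAI (left) and TAI/IVIg (right), with filled points for a limma adjusted p under 0.05. Called genes lie on both sides of 0 in most lists.

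Marker lists were read beside these results. Of all 13056 genes tested, 8.81% were called higher and 26.1% lower in TAI, and 9.06% and 37.4% in TAI/IVIg. Of 12 markers of mature enterocytes, the cells in which gut P450s are mainly found, 7 were called higher in TAI and 9 in TAI/IVIg and none was called lower, and the list summed to 14846 to 23720 FPKM in control, 33854 to 54211 in TAI and 48323 to 53956 in TAI/IVIg mice. Sis, the sucrase-isomaltase of that list, was lower in every TAI mouse (129 to 196 FPKM) than in every control mouse (257 to 510 FPKM) and at 103, 335 and 194 FPKM in TAI/IVIg mice, and it was not called (log2 difference -1.12, limma adjusted p = 0.0631, and -0.95, adjusted p = 0.0866). The 3 ileum markers summed to 7440 to 8246 FPKM in control, 1450 to 3582 in TAI and 233 to 1383 in TAI/IVIg mice, with 0 called in TAI and 3 lower in TAI/IVIg. The 7 fibroblast markers summed to 72.7 to 101 FPKM in control, 87.1 to 107 in TAI and 24.8 to 61.1 in TAI/IVIg mice, with 4 lower in TAI/IVIg. Of the 8 smooth muscle markers 0 were called in TAI and 2 were lower in TAI/IVIg. Of the 8 epithelial markers 1 rose and 2 fell in TAI, against 2 that rose and 3 that fell in TAI/IVIg. Beside the shares of all genes, nothing is read from the smooth muscle and epithelial counts. No leukocyte or endothelial marker was called, and 1 of the 4 tested hepatocyte markers was lower in TAI/IVIg. Pancreas markers summed to at most 0.443 FPKM and colon markers to at most 3.30 FPKM, and the 5 duodenum markers to 33.4 to 49.2 FPKM. Of the duodenum markers, Cubn was called higher in both irradiated groups (3.36 to 6.42 FPKM in control and 16.4 to 29.8 in irradiated mice) and Osr2 lower (13.04 to 20.02 and 4.59 to 7.21 FPKM). The part of these shifts in the P450 levels was not tested.

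**Figure D5:**
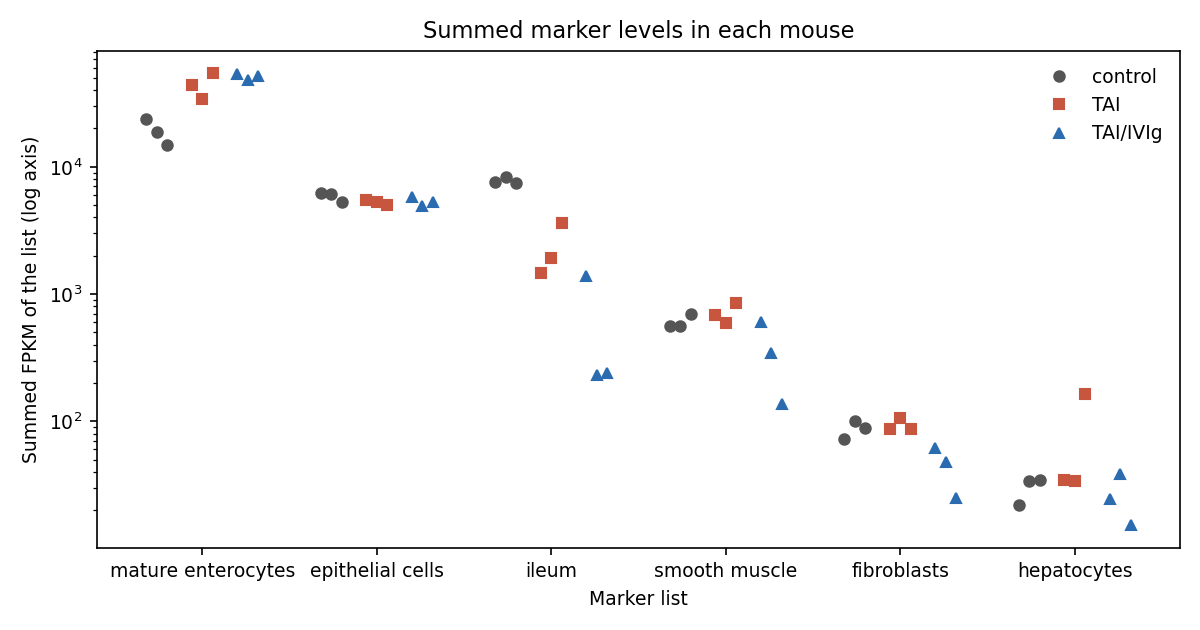
Summed FPKM on a log axis of 6 marker lists in each of the 9 mice, with circles for control, squares for TAI and triangles for TAI/IVIg. Mature enterocyte markers are at 14846 to 23720 FPKM in control and 33854 or more in irradiated mice, and ileum markers fall from 7440 or more in control to 3582 or less.

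The genes outside the 10 whose log2 levels were most like each over the 9 mice were listed, as a description that mostly carries the step from control to irradiated mice. Cyp3a25 and Cyp2c65 both had Cyp2c68 first, with r of 0.999 and 0.997, and Cyp4v3 came second for Cyp3a25 (r = 0.996) and Agap1 for Cyp2c65 (r = 0.995). Cyp3a11 was most like Vwa1 (r = 0.996) and Oplah (r = 0.993), and Cyp2b10 was most like Unc93a (r = 0.995) and Lipe (r = 0.993). Cyp2c66 was most like Fabp1 (r = 0.977), the liver-type fatty acid binding protein of enterocytes, and Slc28a1 (r = 0.976). Cyp2c55 was most like Dcun1d4 (r = 0.966) and Lect2 (r = 0.963), and Cyp3a13 was most like Ndfip2 and Unc5b (r = 0.977 and 0.976). Nr1i2 was most like Entpd7 (r = 0.990) and Mb21d2 (r = 0.978), and Nr1i3 was most like Dab2ip (r = 0.982).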

How the data were processed

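Jejunal mRNA libraries of 9 mice (3 control, 3 TAI and 3 TAI/IVIg) were available as 1 table of FPKM per gene made by the authors. The submitters' processing notes name FastQC, Trimmomatic, STAR, featureCounts and DESeq2 with the builds mm10 and GRCm38, versions not given in the sources used here. The deposited FPKM values gave whole reads (within 0.001) for 100% of values with exon lengths of GENCODE vM21, of which 98.3% matched.

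The log2(FPKM + 1) values of the 13056 genes with at least 1 FPKM in at least 3 mice were fitted in limma (version 3.58.1, R 4.3.3) with group means as terms and a trended prior, and p-values were adjusted by Benjamini-Hochberg over all genes tested, at a threshold of 0.05. Such p-values measure the spread between the mice sampled. An exact permutation test of 3 against 3 mice cannot go below p = 0.1 and was not used. The members and the gene lists were chosen with earlier results of these data known. Named pathway genes are, for each list and direction, up to 3 of those called in TAI against control whose groups did not overlap, ordered by size of change. Other genes named are said to be chosen after their values were seen. Likeness was Pearson's r of log2(FPKM + 1), with up to 2 genes named for each member in the fit. Some genes that these rules would name are not reported here.

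Pairing of the replicate numbers was checked on deviations from the group means. Same-numbered control and TAI mice correlated at 0.271, 0.241 and 0.308, and those of the other pairs of groups at -0.296 to 0.201. The labels do not say what a number stands for. The alternatives changed the pseudocount (to 0.1), the filter (none, or a mean of at least 5 FPKM), the scaling (medians or quantiles), the mice in the fit (the 6 of the 2 groups, or all but 1), the prior (untrended), the model (a replicate block) or the tool (limma voom on the recovered reads). Intervals of read rates are exact at the 95% level. Motifs were matched exactly on both strands, and promoter windows were aligned with free ends. Library pairs within a group correlated at 0.938 to 0.984 across genes and no value above 0 was identical. Antisense partners cannot be told apart where strand was not counted.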

Additional observations from a re-analysis of the deposited data

How the results depend on the processing

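The count of members past the threshold in TAI against control was 7 and fell to 4 with a mean of at least 5 FPKM, where only 6 members were tested. Of all 6398 genes tested in that setting, 829 were called higher and 2231 lower. The members were picked on these contrasts, so nothing is read from their counts in any setting. Leaving out each mouse in turn gave 6 to 8 members in TAI against control, 7 to 9 in TAI/IVIg against control, and 29 to 47 and 39 to 49 pathway genes. Of the 12609 to 12998 genes tested in these fits, 698 to 1305 were called higher and 1645 to 3597 lower in TAI. In TAI/IVIg 918 to 1162 were called higher and 3350 to 4994 lower. With the replicate block the counts were 7, 9 and 0 members and 41, 52 and 0 pathway genes, and the block moved none of these counts by over 1.5 times. Of all 13056 genes, the block gave 1191 higher and 3672 lower in TAI and 1193 and 4984 in TAI/IVIg. The block changed the call of no member. Over all genes it called 3 lower in TAI/IVIg against TAI, and with no filter 4 were lower, none of them a gene described here. With limma voom on the recovered reads the counts were 7, 9 and 0 members and 41, 51 and 0 pathway genes. Of all 13056 genes, voom called 1167 higher and 3307 lower in TAI and 1182 and 4922 in TAI/IVIg. The voom log2 difference of Cyp3a11 in TAI was 7.11 and that of Cyp2c66 was 4.94. Of the pathway calls 25 of 39 in TAI and 31 of 48 in TAI/IVIg held under every alternative, and direction changed for Arnt and Cyp7b1 in TAI/IVIg against control with library medians set equal (0.17 and 0.01), and for Arnt with quantile normalization (0.14). Setting the library medians equal moved the median of all genes in TAI from -0.23 to 0.05. Member differences from control kept their direction under every alternative. Low control counts, from 1 to 3 reads a mouse for Cyp2c66 and Cyp2c29, limit their fold.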
